A study of Homo sapiens with 26 samples.

Results

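The comparison described here is between 2 anchors that hold the APEX2 enzyme on the outer face of the plasma membrane, one built on CD28 and the other on PDGFR. Its members are the 12 libraries, of 26 in the series, whose titles name either anchor: 3 CD28 labeled, 3 CD28 control, 3 PDGFR labeled and 3 PDGFR control. Every library came from HEK293T, a human embryonic kidney line carrying the SV40 large T antigen, stably expressing the APEX2 fusion in question, so the controls carry the fusion as well. Per the labels, the cells were grown with serum and antibiotics, incubated with biotin-phenol for 30 min and exposed to 1 mM hydrogen peroxide for 1 min, and biotinylated RNA was captured on streptavidin beads. The labels list the same steps for labeled and control samples. Which step the controls lacked, the promoter driving the fusions and whether each line is a clone are not given in the sources used here. The series' design text calls the replicates biological. The labels do not say whether they were separate cultures, so p-values measure only the spread between these libraries. For each gene the labeled minus control difference was computed within each anchor, and the anchors were compared by the average of the 2 differences and by CD28 minus PDGFR.

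CD28 is a co-stimulatory receptor of T cells, and the PDGF receptors are tyrosine kinases that bind platelet-derived growth factor. APEX2 is a peroxidase that, supplied with hydrogen peroxide, oxidises biotin-phenol to reactive radicals, which biotinylate nearby molecules before they decay. RNA with a labeled minus control difference above 0 was higher relative to the rest of its library in labeled than in control samples. The amount of RNA captured in each arm is not given by these values. The genes described first encode small nuclear or nucleolar RNAs or overlap them. U1, U2, U4, U5 and U6 are the RNA cores of the spliceosome, and U1 pairs with the 5′ splice site through bases near its own 5′ end. U3 is a small nucleolar RNA that acts in the processing of ribosomal RNA.

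The U1 sequences below are those of genes called higher with PDGFR, shown because several U1 genes are copies of one another. Of these, only RNVU1-15 was also called with CD28. The limma adjusted p with CD28 was 0.0877 for RNU1-1, 0.285 for RNVU1-7 and 0.0984 for RNVU1-27. All sequences but that of the microRNA were read from the GENCODE 29 transcripts on GRCh38 (hg38). In the U1 sequences, capitals mark bases 3 to 11, counted from 1 at the 5′ end, the stretch that pairs with the 5′ splice site. RNU1-1 lies at chr1:16514122-16514285 on the minus strand. RNVU1-7, a variant U1 gene at chr1:148038753-148038916 (minus strand), differs from it only by T150C. RNVU1-15 at chr1:144412576-144412740 (plus strand) is 18 edits away, 1 of them within the capitals. RNVU1-27 at chr1:148522601-148522765 (plus strand) is 14 edits away with the same capitals.
RNU1-1: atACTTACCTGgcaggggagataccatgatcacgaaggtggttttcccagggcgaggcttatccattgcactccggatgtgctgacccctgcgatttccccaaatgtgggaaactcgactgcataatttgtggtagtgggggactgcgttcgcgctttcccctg
RNVU1-7: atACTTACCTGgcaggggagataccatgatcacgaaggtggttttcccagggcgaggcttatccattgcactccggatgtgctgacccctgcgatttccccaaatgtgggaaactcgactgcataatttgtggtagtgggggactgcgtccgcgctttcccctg
RNVU1-15: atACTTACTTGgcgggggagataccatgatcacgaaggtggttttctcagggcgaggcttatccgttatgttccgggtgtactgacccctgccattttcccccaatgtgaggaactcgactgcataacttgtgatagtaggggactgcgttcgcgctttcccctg
RNVU1-27: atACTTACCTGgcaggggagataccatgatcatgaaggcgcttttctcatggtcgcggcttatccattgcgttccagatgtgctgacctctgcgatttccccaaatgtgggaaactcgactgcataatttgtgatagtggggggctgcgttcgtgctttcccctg

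Of the 34 U1 genes tested, 8 have exactly the RNU1-1 sequence: RNU1-1, RNU1-2, RNU1-3, RNU1-4, RNU1-27P, RNU1-28P, RNVU1-18 and RNVU1-29. Reads within these 164 bases cannot be told apart between the copies, so single-copy values are uncertain and summed values are given beside them.

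The U3 gene SNORD3B-2 (chr17:19063346-19064136, minus strand), which had the most reads of its family, and a microRNA higher in the average follow. The 218-base transcript of SNORD3B-2 is identical to that of SNORD3B-1 and 2 edits from that of SNORD3D. The mature sequence of MIR5087 (chr1:148334522-148334544, minus strand; RefSeq, GRCh38.p14) has its seed, bases 2 to 8, in capitals.
SNORD3B-2: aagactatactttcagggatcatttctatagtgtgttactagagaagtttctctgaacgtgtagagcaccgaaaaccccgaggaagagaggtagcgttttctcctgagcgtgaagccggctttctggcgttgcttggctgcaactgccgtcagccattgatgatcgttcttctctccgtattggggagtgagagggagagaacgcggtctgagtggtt
MIR5087: gGGUUUGUagcuuugcuggcaug

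Reads recovered from the values totalled 11.57 to 16.58 M per library. In 2 libraries, CD28 labeled replicate 2 and the one labelled PDGFR control replicate 2, 1940 and 1773 of the 21601 tested genes were at 0 reads, against 103 to 839 elsewhere, and results are given with and without this pair. CD28 itself was at 1857 to 3591 reads in its own libraries and at 0 in all 6 PDGFR libraries. PDGFRB had 42 to 58 reads in 5 PDGFR libraries, 9 in the library labelled PDGFR control replicate 2, and 2 to 25 in the CD28 libraries, so that library fell within the CD28 range for PDGFRB while its CD28 reads were at 0. PDGFRA had 9 to 44 reads with PDGFR and 23 to 52 with CD28. Of 8 HEK293 markers 7 were tested (NEFL at a mean of 1034 reads, VIM at 3185) and 0 were called in any comparison, and of 8 blood, 7 fibroblast, 7 epithelial and 4 endothelial markers 1, 1, 2 and 0 were tested and 0 called. In bulk RNA of this kind, fewer cells of a type and less RNA per cell cannot be told apart.

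The anchors agreed on a small set of genes. Genes were called at an adjusted p under 0.05 in limma, with Benjamini-Hochberg adjustment over the 21601 genes tested. With CD28, 5 genes rose (0.0231% of those tested) and 1 fell (0.00463%), 0.0278% in all, and 1626 had an unadjusted p under 0.05 (7.53%). With PDGFR, 24 rose (0.111%) and 8 fell (0.037%), 0.148% in all, and 1643 had an unadjusted p under 0.05 (7.61%). All 6 genes called with CD28 were called in the same direction with PDGFR, 5 higher (0.0231%) and 1 lower (0.00463%), and 0 genes were called in opposite directions. Counting instead the genes whose labeled and control libraries did not overlap, labeled was higher with both anchors for 267 (1.24%), lower with both for 210 (0.972%) and opposite for 58 (0.269%), while 7.47% were higher and 6.6% lower with CD28 alone in view and 7.41% and 6.48% with PDGFR. The count of 6 rested on which libraries entered. It was 1 without the 2 libraries with many genes at 0 reads, 1 without CD28 labeled replicate 1, 2 or 3 or CD28 control replicate 2, 3 without CD28 control replicate 1 or 3 or PDGFR labeled replicate 2, and 10 without the library labelled PDGFR control replicate 2. The calls with PDGFR, 32 in all, numbered 10, 17 and 21 without PDGFR labeled replicate 2, PDGFR labeled replicate 3 and CD28 labeled replicate 1, and 67 without PDGFR control replicate 1. The gene called with both anchors without the 2 libraries was ENSG00000276216.

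**Figure D1:**
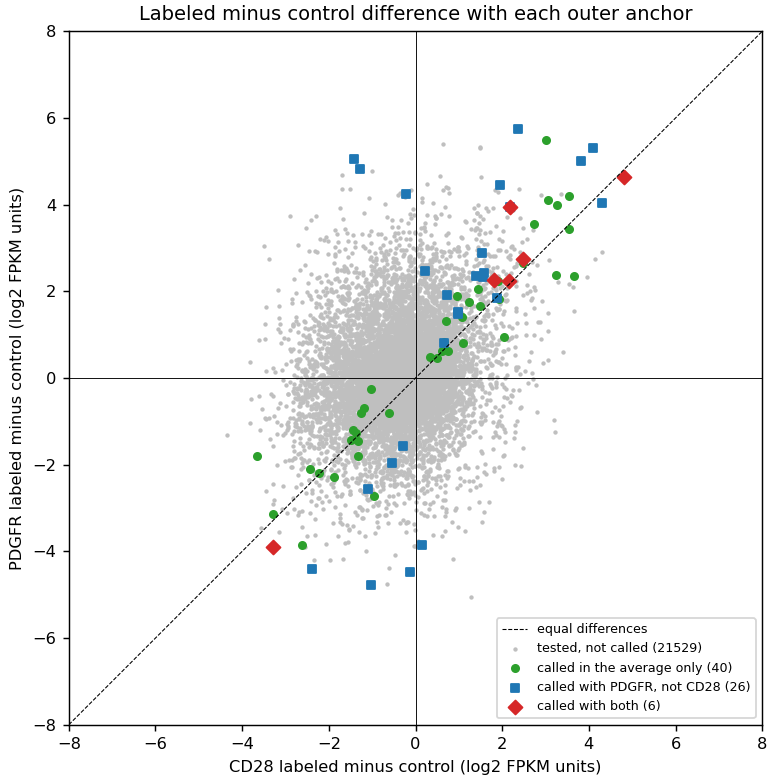
Labeled minus control difference with CD28 (x axis) against PDGFR (y axis), in log2 FPKM units, 1 point per tested gene. The 6 genes called with both anchors lie near the line of equal differences except RNVU1-29, at 2.17 with CD28 and 3.94 with PDGFR.

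ENSG00000276216 (chr1:145281116-145281462, plus strand), an unnamed noncoding gene on the same strand as the variant U1 gene RNVU1-14, which it overlaps, gave the closest match. Its log2 FPKM was 6.52, 6.03 and 6.17 in the CD28 labeled libraries and 3.84, 4.33 and 4.08 in the CD28 controls. With PDGFR it was 6.40, 6.30 and 6.30 labeled and 4.15, 3.94 and 4.22 in controls. Labeled and control libraries were far apart with each anchor, and the anchors overlapped within each arm. The differences, each of 3 against 3 libraries, were 2.16 ± 0.16 with CD28 (limma adjusted p = 0.00089) and 2.23 ± 0.16 with PDGFR (limma adjusted p = 0.000379). Their SE is the same because limma used 1 variance per gene over the 12 libraries. CD28 minus PDGFR was -0.07, with a 95% interval from -0.56 to 0.41. With the 2 libraries omitted, the CD28 and PDGFR differences were 2.26 and 2.15 (limma adjusted p = 0.00583 and 0.00445). Whether these reads came from this gene or from RNVU1-14 cannot be told from the counts.

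RNVU1-15, the variant U1 whose capitals differ above, stood at 7.39, 7.18 and 6.78 log2 FPKM in CD28 labeled libraries against 4.66, 3.90 and 5.32 in controls, and at 7.11, 7.09 and 6.72 against 4.13, 4.02 and 4.50 with PDGFR. No labeled library overlapped a control. Its differences were 2.49 ± 0.31 with CD28 (limma adjusted p = 0.0338) and 2.75 ± 0.31 with PDGFR (limma adjusted p = 0.00827), and the difference between anchors was -0.26, with a 95% interval from -1.23 to 0.70. When the 2 libraries were left out, the limma adjusted p became 0.155 with CD28 and 0.0513 with PDGFR, at nearly the same sizes, 2.46 and 2.66.

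RNU1-2, a canonical U1 copy that overlaps CROCC on the same strand, had few reads. There were 18, 33 and 33 in CD28 labeled libraries and 1, 0 and 0 in controls, and with PDGFR 34, 7 and 24 against 0 in each control. The controls were all but empty with both anchors. From summed reads it was 75.2-fold higher with CD28 (95% counting interval 13.1 to 3005), resting on 1 control read. With PDGFR it was at least 22.7-fold higher, taking 3 reads over the group as the floor. Both folds are for reads assigned to this copy alone, and reads of identical copies cannot be told apart. In limma the log2 differences were 4.80 ± 0.56 and 4.65 ± 0.56 (adjusted p = 0.0281 and 0.0116), and without the 2 libraries both missed the threshold (limma adjusted p = 0.155 and 0.056).

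RNVU1-29, identical in sequence to RNU1-1 and overlapping SEC22B4P on the opposite strand, rose with both anchors but by unequal amounts. Its log2 FPKM was 6.76, 6.18 and 6.54 in CD28 labeled libraries against 4.37, 4.85 and 3.77 in controls, and 6.12, 6.55 and 5.73 against 2.16, 2.38 and 2.05 with PDGFR. The labeled libraries of the anchors overlapped, and every CD28 control was above every PDGFR control. The differences were 2.17 ± 0.28 (limma adjusted p = 0.0405) and 3.94 ± 0.28 (limma adjusted p = 0.000379). CD28 minus PDGFR was -1.77 ± 0.40, with unadjusted p = 0.00106 and limma adjusted p = 0.938, so it was not called. Without the 2 libraries the limma adjusted p of RNVU1-29 was 0.115 with CD28 and 0.00501 with PDGFR.

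ENSG00000262202 (chr17:19112000-19112636, minus strand), which overlaps the U3 gene SNORD3D on its own strand, stood at 5.78, 5.72 and 6.02 log2 FPKM in CD28 labeled libraries against 4.28, 3.76 and 4.06 in controls. With PDGFR it was at 6.09, 6.20 and 5.62 against 3.70, 3.44 and 4.01. Labeled libraries were above controls throughout, by 1.80 ± 0.20 with CD28 (limma adjusted p = 0.0281) and 2.25 ± 0.20 with PDGFR (limma adjusted p = 0.00167). With the 2 libraries omitted, the limma adjusted p was 0.0764 with CD28 and 0.0113 with PDGFR. Whether the reads of ENSG00000262202 came from it or from SNORD3D cannot be told either. ENSG00000276216 and ENSG00000262202 fall outside the rule for named genes and were named after their values were seen.

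**Figure D2:**
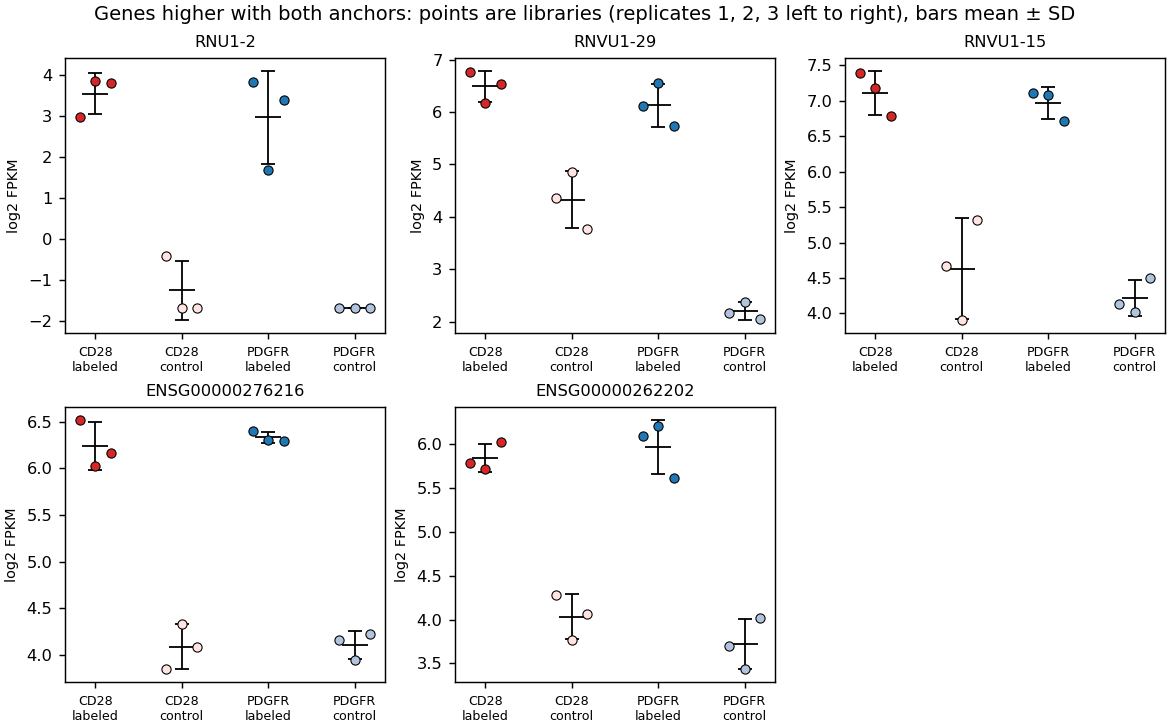
log2 FPKM in each library for the 5 genes called higher with both anchors, with group means and SDs. Labeled and control libraries did not overlap in any of the 5 panels, and in RNVU1-29 the CD28 controls (3.77 to 4.85) lie above the PDGFR controls (2.05 to 2.38).

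Because copies share reads, U1 was also summed. All 34 U1 genes together had 172, 157 and 163 RPM (reads scaled to library total) in CD28 labeled libraries and 44.4, 50.8 and 63.4 in CD28 controls. With PDGFR they had 167, 178 and 157 against 46.5, 47.0 and 39.0. The labeled values of the anchors overlapped and were about the same. The difference in log2 was 1.65 ± 0.15 with CD28 and 1.92 ± 0.10 with PDGFR (SE, n = 3 against 3), and the average of 1.79 had a two-sided exact permutation p = 0.005, the smallest that the 400 relabelings within anchors can give, adjusted p = 0.0113 over 9 families. CD28 minus PDGFR was -0.27 ± 0.19.

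The 8 identical copies behaved less alike between anchors than the whole family. Their summed reads were 618, 388 and 576 in CD28 labeled libraries and 82, 108 and 92 in controls, and 456, 569 and 340 against 45, 51 and 33 with PDGFR. In RPM the labeled libraries overlapped, at 25.4 to 40.1 with CD28 and 26.2 to 39.6 with PDGFR, and the controls did not, at 6.02 to 9.33 and 2.52 to 4.31. The difference was 2.16 ± 0.27 with CD28 and 3.41 ± 0.30 with PDGFR. This sum was formed after the values were seen and was not tested.

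Across single U1 genes the labeled minus control difference was above 0 with both anchors in 21 of 34, against 6622 of 21601 genes tested. Medians were 1.75 for CD28 and 2.34 for PDGFR, against 0.03 and 0.02 over all genes tested. The difference was above 0 with both in 8 of 8 identical copies (medians 2.57 and 3.75), 6 of 10 genes with 1 to 18 edits (1.57 and 2.38) and 7 of 16 with more than 18 edits (-0.0033 and 0.61). Sequence distance did not sort them fully: RNVU1-4, 33 edits away and with altered bases in the capital stretch, stood at 3.35 and 4.25, whereas RNVU1-1, 6 edits away, stood at -1.63 and -0.33 on a mean of 4.17 reads. Of the 18 genes with an RNVU1 symbol 15 were above 0 with both anchors, and of the 12 pseudogene symbols ending in P, 2, both of them identical copies. This split depends on the naming used, as GENCODE 29 gives RNVU1-34 as RNU1-85P and RNVU1-21 as RNU1-122P. The edit groups were drawn after the values were seen.

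PDGFR called more genes than CD28, and most of those pointed the same way with CD28. Of the 24 that rose with PDGFR, 21 were above 0 with CD28, 20 had CD28 labeled libraries all above CD28 controls, and 21 had a smaller difference with CD28, with medians of 1.69 and 2.82. Over all genes tested 52.6% were above 0 with CD28, and 10550 of 21601 had a smaller difference with CD28. CD28 groups were apart with labeled higher in 7.47% and lower in 6.6%. Of the 8 that fell with PDGFR, 7 were below 0 with CD28 and 5 had CD28 groups apart, with medians of -0.78 and -3.89. Genes called with PDGFR were chosen for large PDGFR differences, so a smaller value with CD28 is a description.

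RNU4-2, a canonical U4 gene (chr12:120291763-120291903, minus strand), had 137, 112 and 76 reads in CD28 labeled libraries against 21, 13 and 20 in controls. With PDGFR it had 111, 92 and 87 against 12, 0 and 0. Labeled values overlapped between the anchors and the controls did not. Its log2 difference was 2.37 ± 0.81 with CD28 (limma adjusted p = 0.625) and 5.74 ± 0.81 with PDGFR (limma adjusted p = 0.0252), and CD28 minus PDGFR was -3.36 ± 1.15 (unadjusted p = 0.0145, limma adjusted p = 0.938). Without PDGFR control replicate 1, the library with 12 reads, CD28 minus PDGFR became -4.64 and was called (limma adjusted p = 0.00358). When the 2 libraries were left out, the PDGFR call on RNU4-2 was lost (5.10, limma adjusted p = 0.105).

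SNORD3B-2, the U3 gene with the most reads, stood at 6.36, 6.14 and 6.58 log2 FPKM in CD28 labeled libraries and 4.94, 5.32 and 4.65 in controls, and at 6.47, 6.64 and 6.51 against 4.36, 3.76 and 4.43 with PDGFR. Labeled libraries overlapped between anchors, and the CD28 controls were again all above the PDGFR controls. It rose by 2.36 ± 0.21 with PDGFR (limma adjusted p = 0.00167), and the CD28 value of 1.39 ± 0.21 missed the threshold (limma adjusted p = 0.0877). Its twin in sequence, SNORD3B-1, gave 1.88 ± 0.27 with CD28 and 1.84 ± 0.27 with PDGFR, and only the PDGFR value was called (limma adjusted p = 0.0877 and 0.0291).

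RNU1-1 had 31, 20 and 53 reads in CD28 labeled libraries against 1, 0 and 4 in controls, and 31, 21 and 37 against 0 in each control with PDGFR. By reads assigned to this copy it was at least 31.1-fold higher with PDGFR, taking 3 reads over the group as the floor, with limma adjusted p = 0.00908. The CD28 log2 difference was 4.09 ± 0.61 (limma adjusted p = 0.0877). Identical copies share reads, so that floor does not hold for the RNA, and the 8 copies summed rose by 3.41 ± 0.30 in log2 with PDGFR. RNU5A-8P, a U5 pseudogene on the strand opposite to HHAT, gave 2.18 ± 0.48 with CD28 and 3.94 ± 0.48 with PDGFR (limma adjusted p = 0.353 and 0.012). Among protein-coding genes, ACP4, an acid phosphatase gene that overlaps 2 unnamed genes on the opposite strand, had 231, 130 and 384 reads in CD28 labeled libraries against 74, 99 and 45 in controls, and 514, 427 and 407 against 66, 58 and 64 with PDGFR. Every PDGFR labeled library was above every CD28 labeled library in log2 FPKM, with controls overlapping. Its differences were 1.54 ± 0.36 and 2.88 ± 0.36 (limma adjusted p = 0.392 and 0.012).

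Averaging the 2 differences called 66 genes, 44 higher and 22 lower (0.306% of those tested, 0.204% higher and 0.102% lower, and 10.6% had an unadjusted p under 0.05). All 66 had the same sign with both anchors. Opposite differences cancel in the average, so choosing genes on it favors a shared sign and the count is a description. Median centring of the libraries changed the split to 48 higher and 14 lower, and moved the median CD28 difference of all genes from 0.03 to 0.14. Among all 21601 genes tested, 296 were of the small nuclear RNA type, 12631 protein-coding, 1184 long intergenic and 2285 antisense. Of the 44 called higher, 15 were of the small nuclear RNA type, 13 protein-coding and 6 long intergenic. Of the 22, 10 were antisense, 3 long intergenic and 3 of the small nuclear type. The antisense count rested on the 2 libraries: without them 1 antisense gene was lower and 5 were higher, against 10 and 3 with them. Without the 2 libraries 60 were called, 36 of them among the 66. Leaving out single libraries gave more than 1.5 times fewer calls in 9 cases: 27 without PDGFR labeled replicate 1 or 2, 29 without CD28 control replicate 1 or 2, 31 without CD28 control replicate 3, 38 without CD28 labeled replicate 1 or 3, 40 without PDGFR control replicate 3 and 41 without CD28 labeled replicate 2.

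Small RNA genes were among those called in the average. RNU4-1, the other canonical U4 gene, had 62, 14 and 58 reads in CD28 labeled libraries against 4, 1 and 5 in controls, and 35, 18 and 13 against 4, 0 and 0 with PDGFR, an average difference of 3.63 ± 0.55 (limma adjusted p = 0.0292). MIR5087, whose mature sequence is given above, overlaps LINC01138 on its own strand and an unnamed gene on the other. It had 118, 181 and 86 reads against 10, 10 and 13 with CD28, and 60, 129 and 58 against 43, 10 and 7 with PDGFR. Labeled libraries were above controls with both anchors, by 3.25 ± 0.52 and 2.39 ± 0.52, and the average of 2.82 ± 0.37 was called (limma adjusted p = 0.0113; 0.0604 without the 2 libraries). The counts cannot say whether these reads came from the microRNA or from LINC01138.

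Among longer transcripts, SNHG12, a noncoding RNA whose introns carry small nucleolar RNAs, had the largest difference of the 22 host genes tested in the average. Its log2 FPKM was 4.91, 4.56 and 5.03 in CD28 labeled libraries against 4.15, 3.69 and 3.76 in controls, and 5.25, 5.32 and 5.09 against 3.79, 3.48 and 3.81 with PDGFR. Every PDGFR labeled library was above every CD28 labeled one and the controls overlapped. SNHG12 rose by 1.25 ± 0.12 in the average (limma adjusted p = 0.00111). It passed with PDGFR (1.53 ± 0.16, limma adjusted p = 0.0064) and not with CD28 (0.97 ± 0.16, limma adjusted p = 0.139), and the difference of -0.56 ± 0.23 had unadjusted p = 0.0364 and limma adjusted p = 0.938. SNHG12 overlaps TRNAU1AP on the opposite strand, and the strandedness of the libraries is not known here.

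SRSF6, a serine and arginine rich splicing factor, was the most even of the longer mRNAs. It stood at 6.33, 6.43 and 6.23 log2 FPKM labeled against 5.75, 5.67 and 5.75 with CD28, and at 5.99, 6.26 and 6.03 against 5.43, 5.55 and 5.43 with PDGFR. Labeled libraries lay above controls with both anchors, by 0.61 ± 0.10 and 0.63 ± 0.10, and the average of 0.62 ± 0.07 was called (limma adjusted p = 0.00535). HEXIM1, an inhibitor of the elongation kinase P-TEFb that binds 7SK RNA, rose by 0.69 ± 0.12 in the average (0.76 with CD28 and 0.63 with PDGFR, limma adjusted p = 0.0449). SNHG3, another host gene, which overlaps RCC1 on the same strand, rose by 0.41 ± 0.07 (limma adjusted p = 0.0491; 0.0635 without the 2 libraries). With the 2 libraries omitted, HEXIM1 was at 0.72 with limma adjusted p = 0.0905.

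Of the genes lower in the average, TXNIP, an inhibitor of thioredoxin, had 385, 319 and 338 reads against 439, 477 and 509 with CD28 and 330, 306 and 403 against 648, 541 and 714 with PDGFR. Its labeled libraries were below the controls of the same anchor in log2 FPKM. TXNIP fell by 0.71 ± 0.12 on the log2 scale (limma adjusted p = 0.047; 0.12 without the 2 libraries). HOXA-AS3 and HOXA-AS2, antisense transcripts of the HOXA cluster that overlap each other and several HOXA genes, fell by 1.04 ± 0.15 and 0.64 ± 0.11 in the average (limma adjusted p = 0.0196 and 0.0449). When the 2 libraries were left out HOXA-AS3 had limma adjusted p = 0.0604. HOXA-AS2 had 303, 269 and 369 reads against 596, 537 and 580 with CD28 and 424, 492 and 495 against 619, 566 and 552 with PDGFR. The decrease was -1.03 ± 0.15 with CD28 and -0.24 ± 0.15 with PDGFR, and their difference of -0.79 ± 0.22 was not called (unadjusted p = 0.00394, limma adjusted p = 0.938).

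The other small RNA families were summed in the same way, with exact permutation p-values adjusted over the 9 families. U3 had 128, 96.0 and 124 RPM in CD28 labeled libraries against 45.5, 50.1 and 55.6 in controls, and 132, 137 and 118 against 31.7, 32.6 and 40.1 with PDGFR, with no overlap in either. Its difference was 1.19 ± 0.16 with CD28 and 1.89 ± 0.12 with PDGFR, and the average of 1.54 had adjusted p = 0.0113 by exact permutation. CD28 minus PDGFR for U3 was -0.70 ± 0.20, the CD28 controls being above the PDGFR controls in every library. U2 gave 0.67 ± 0.21 and 1.14 ± 0.21, and U5 gave 2.36 ± 0.69 and 1.58 ± 0.24, each with adjusted p = 0.0113 by exact permutation for the average and with labeled libraries above controls in both anchors.

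The summed U6 and Y RNA genes were lower in the average. U6 genes, 190 in number, stood at 103, 99.9 and 97.8 RPM in CD28 labeled libraries against 131, 184 and 146 in controls, and at 142, 115 and 163 against 147, 225 and 177 with PDGFR, where the groups overlapped. The U6 average of -0.49 had adjusted p = 0.018 by exact permutation, with -0.60 ± 0.15 for CD28 and -0.38 ± 0.23 for PDGFR. Y RNA genes were at -0.58 ± 0.28 and -0.48 ± 0.29 (adjusted p = 0.03 by exact permutation), and without the 2 libraries the average was -0.44 with unadjusted p = 0.07. The U4 sum was at 0.32 ± 0.31 and 0.63 ± 0.28 (adjusted p = 0.0643), 7SK at -0.39 ± 0.22 and -0.05 ± 0.12 (adjusted p = 0.1125) and 7SL at -0.14 ± 0.29 and -0.07 ± 0.19 (adjusted p = 0.505), none of which passed the exact permutation test. The U6, Y, 7SL and 7SK sums include pseudogene loci, as do those of U1 (12 symbols ending in P), U2 (RNU2-63P) and U5 (RNU5A-8P). The U4 sum covers 19 genes, so it does not measure the canonical RNU4-1 and RNU4-2 alone.

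**Figure D3:**
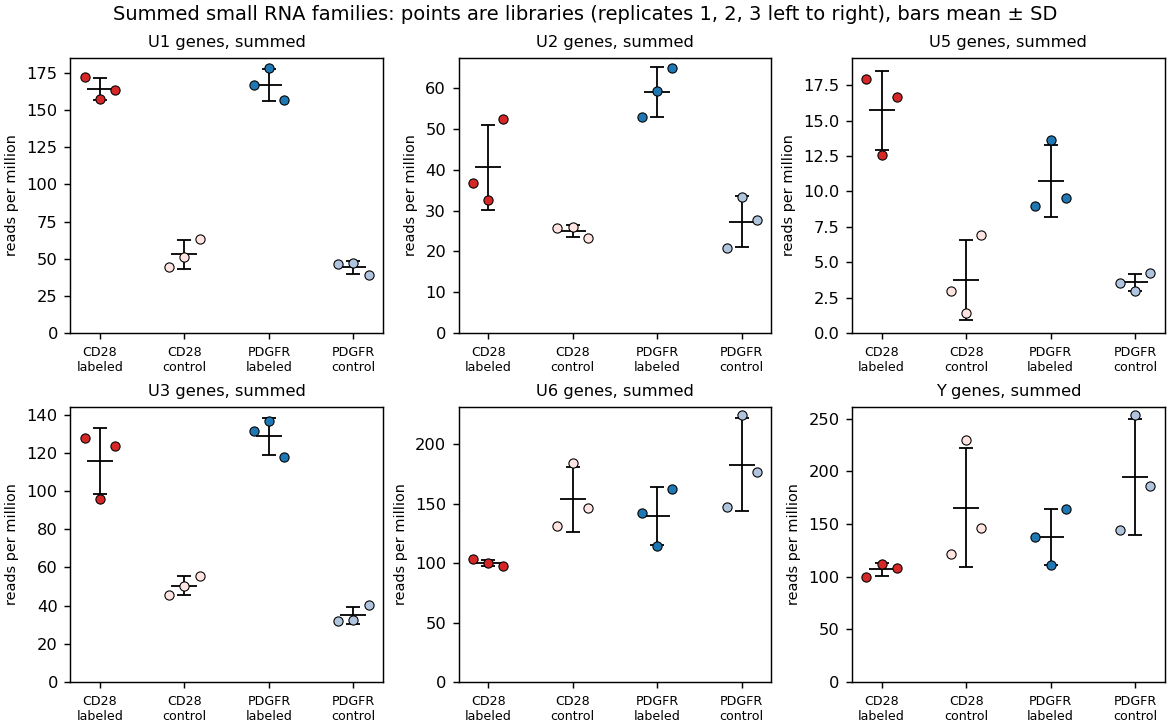
Summed RPM in each library for 6 small RNA families, with group means and SDs, axes from 0. U1, U2, U5 and U3 are higher in labeled than in control libraries with both anchors, and U6 and Y are lower in CD28 labeled than in CD28 control libraries while the PDGFR groups overlap.

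Gene lists for other compartments and responses held few calls with either anchor. Of 10 major spliceosomal RNA genes tested, 1, 3 and 5 rose with CD28, PDGFR and in the average. With both anchors 10 of 10 were above 0, against 6622 of 21601 genes tested. These 10 were RNU1-1 to RNU1-4, RNU4-1, RNU4-2 and RNU5 genes, with no U2 or U6 gene. RNU1-1 to RNU1-4 are identical copies whose reads cannot be told apart. Of 16 variant U1 genes the counts were 2, 4 and 6, of 4 U3 genes 0, 2 and 2, and of 22 small nucleolar RNA host genes 0, 1 and 2. With the 2 libraries omitted, the counts were 0, 1 and 4 for the major spliceosomal RNA genes, 0, 3 and 6 for variant U1, 0, 2 and 3 for U3 and 0, 1 and 1 for the host genes. Among 15 SR proteins and CLK kinases SRSF6 alone was called, among 8 P-TEFb and 7SK proteins HEXIM1 alone, and among 16 oxidative stress genes TXNIP alone, all in the average, and of these 3 SRSF6 was still called with the 2 libraries omitted. Lists of 26 endoplasmic reticulum chaperones and translocon subunits, 33 plasma membrane receptors and adhesion proteins, 20 solute carriers and pumps and 19 matrix and secreted proteins had 0 genes called in any comparison, with CD28 medians of 0.29, 0.09, 0.16 and 0.09 and PDGFR medians of 0.18, 0.11, 0.17 and 0.11. The background was 0.0278%, 0.148% and 0.306% of all genes called, so 0 in a list of this size is near it.

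Immediate early genes also had 0 of 30 called, though EGR1, a transcription factor induced within minutes by growth factors, had large values. It had 97, 45 and 133 reads in CD28 labeled libraries against 14, 43 and 8 in controls, and 87, 118 and 61 against 21, 27 and 20 with PDGFR. The CD28 groups overlapped by 1 library on each side and the PDGFR groups were apart. Its differences were 2.09 ± 0.65 and 1.95 ± 0.65, with limma adjusted p = 0.605 and 0.473, and 0.138 for the average. The 61 ribosomal protein mRNAs were above 0 with both anchors in 60 cases, against 4847 of 12631 protein-coding genes. These mRNAs had medians of 0.39 and 0.30 and 0 calls. The medians moved with the scaling and libraries, to 0.13 and 0.14 under quantile normalization and to 0.47 and 0.06 without the 2 libraries.

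No gene was called as different between the anchors. For CD28 minus PDGFR limma called 0 of 21601 genes (0.0%), 861 had an unadjusted p under 0.05 (3.99%), and limma voom on the recovered reads also called 0. The smallest adjusted p, 0.221, was shared by RN7SL502P, a 7SL pseudogene with a mean of 5.33 reads, and RGS17P1, a processed pseudogene of a G protein regulator that lies within ELF1 on the same strand. It had 10, 4 and 2 reads in CD28 labeled libraries and 7, 19 and 12 in controls, and 17, 21 and 40 against 0 in each control with PDGFR. With CD28 the groups overlapped, and with PDGFR it was at least 27.2-fold higher from a floor of 3 reads over the group. CD28 minus PDGFR was -6.48 ± 0.89 on the log2 scale, with limma adjusted p = 0.221. It was called when all 26 libraries of the series entered the fit (limma adjusted p = 7.48e-05, or 0.000673 with libraries weighted by construct). The libraries added there had more reads and a narrower spread, which enters the variance of each gene in that fit.

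The other genes with the smallest p for the difference, none of them called, ranged over small and coding RNAs. UBE2T, a ubiquitin-conjugating enzyme of the Fanconi anaemia pathway, had the narrowest interval. It stood at 4.97, 4.83 and 4.73 log2 FPKM against 4.70, 4.68 and 4.81 with CD28 and at 4.33, 4.14 and 3.88 against 4.93, 4.66 and 4.80 with PDGFR. The CD28 groups overlapped and the PDGFR labeled libraries were below all others. CD28 minus PDGFR was 0.79, with a 95% interval from 0.38 to 1.20 and limma adjusted p = 0.938. QRFP, which encodes a neuropeptide precursor, had 47, 52 and 98 reads against 50, 52 and 42 with CD28 and 135, 131 and 119 against 24, 14 and 38 with PDGFR. QRFP rose with PDGFR (2.47 ± 0.37, limma adjusted p = 0.0321; 0.0961 without the 2 libraries) and was at 0.21 ± 0.37 with CD28, and the difference of -2.26 ± 0.53 had limma adjusted p = 0.938.

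PAXIP1-DT, a divergent transcript at the PAXIP1 promoter, had 110, 101 and 115 reads against 145, 108 and 106 with CD28 and 98, 66 and 96 against 307, 290 and 205 with PDGFR. The PDGFR controls were above all other libraries. It fell with PDGFR by 1.56 ± 0.22 on the log2 scale (limma adjusted p = 0.0246; 0.0913 without the 2 libraries), and the CD28 value was -0.29 ± 0.22. HMGN2P38, a pseudogene on the strand opposite to FAM168A, was opposite in sign, at -1.51 ± 0.37 with CD28 and 1.19 ± 0.37 with PDGFR, neither called (limma adjusted p = 0.43 and 0.427). PUF60, a splicing factor, was at 2.21 ± 0.46 with CD28 and -0.39 ± 0.46 with PDGFR, with limma adjusted p = 0.299 and 0.885. RNU6-122P, MIR4482 and LINC02585 had CD28 minus PDGFR values of 3.75, 2.45 and -1.13, with limma adjusted p = 0.938 for each.

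**Figure D4:**
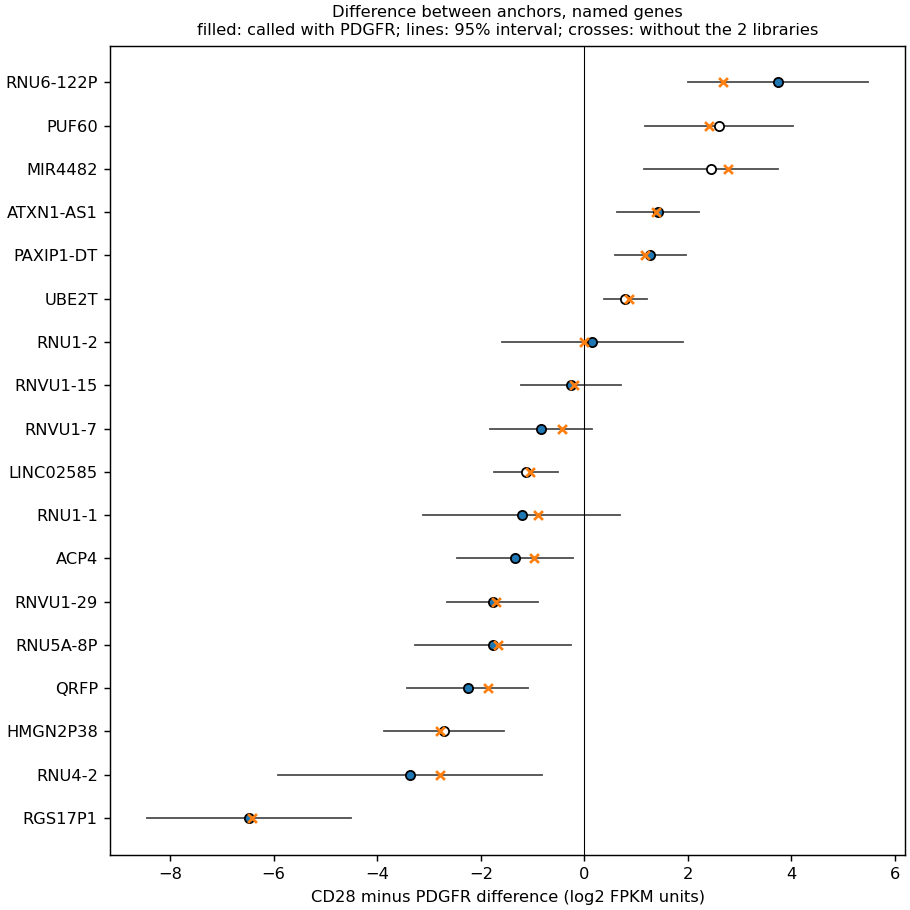
CD28 minus PDGFR difference in log2 FPKM units (x axis) for the named genes called with PDGFR (filled) or with the smallest p for the difference (open), with 95% intervals that are not adjusted for the number of genes. Crosses give the value without CD28 labeled replicate 2 and PDGFR control replicate 2. RGS17P1 at -6.48 is farthest from 0, and RNU1-2 and RNVU1-15 have intervals that span 0.

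A difference between anchors can lie in the labeled or in the control libraries, and for the genes that rose with PDGFR it lay more often in the controls. Of these 24 genes, 10 had every CD28 control above every PDGFR control (8.24% of all genes tested) and 0 had them below (5.69%). Labeled libraries of the anchors were apart in 5, each with CD28 below (9.53% of all tested, against 16.7% with CD28 above). In 8 genes the controls alone were apart (8.08% of all tested), among them RNVU1-29, RNU4-2, RNU5A-8P and SNORD3B-2, whose CD28 controls exceeded PDGFR controls by 2.13, 3.51, 2.96 and 0.79 log2 units. The 8 genes that fell with PDGFR went the other way, with labeled libraries apart in 6, each with CD28 above, and controls in 4, each with CD28 below. Over the 861 genes with an unadjusted p under 0.05 for the difference, labeled libraries alone were apart in 47.2% and controls alone in 28.1%. The shares over all genes tested were 20.4% and 8.08%. The genes were chosen on contrasts that these libraries enter, so the counts are a description.

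The 2 libraries with many genes at 0 reads moved whole classes of genes. Over the 5896 genes with a mean under 30 reads, the median of CD28 minus PDGFR was -0.56 with all 12 libraries and -0.04 without the 2. For antisense genes it went from -0.38 to -0.04, for processed pseudogenes from -0.41 to -0.05 and for microRNA genes from -0.53 to -0.04. The 15 mitochondrially encoded RNAs changed sign, from -0.50 to 0.27, as their CD28 median went from -0.01 to 0.80. Over the 12631 protein-coding genes the median was 0.07 and 0.11. The ribosomal protein mRNAs, with a median of 0.12, moved to 0.40.

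Across genes, the CD28 and PDGFR differences correlated weakly, with Pearson's r of 0.198 and Spearman's rho of 0.165 over 21601 genes that are not independent replicates, and 56.1% had the same sign. The anchors share no control library. Without the 2 libraries r was 0.268, and over protein-coding genes it was 0.213 with them and 0.379 without. In genes with a mean of at least 1000 reads r was 0.131 and 0.336. These are descriptions across genes of 12 libraries, in which the recovered depth and the spread of each library enter every gene.

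**Figure D5:**
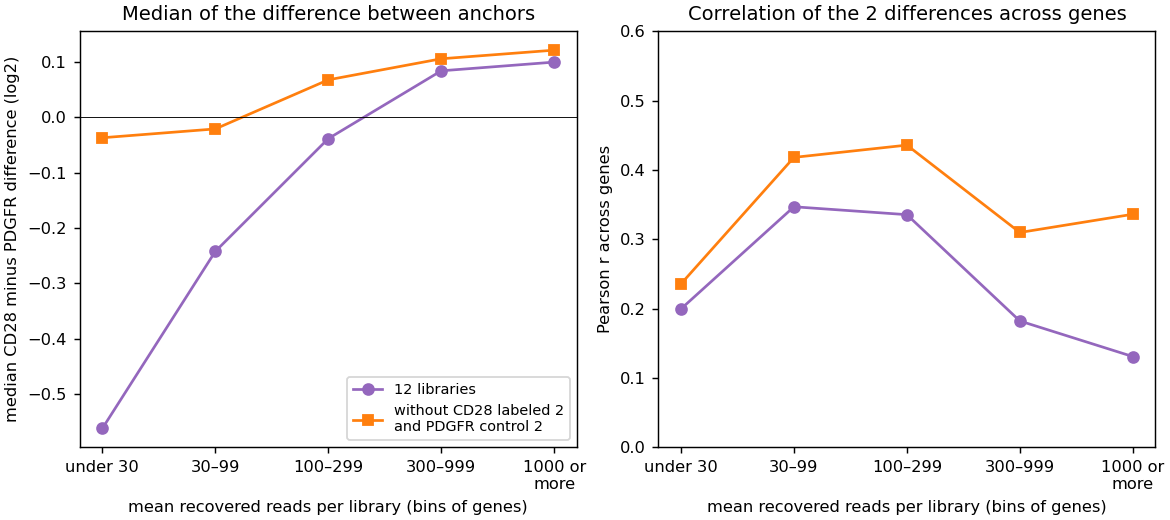
Genes binned by mean recovered reads per library (x axis). Left, median CD28 minus PDGFR difference in log2 units, -0.56 with 12 libraries and -0.04 without the 2 in the lowest bin. Right, Pearson's r between the CD28 and PDGFR differences across genes, higher without the 2 libraries in every bin.

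The precision of the comparison differed between genes. The 95% interval of CD28 minus PDGFR, not adjusted for the number of genes, lay wholly within 1 log2 unit of 0 for 7096 genes (32.9%). That share was 83.6% of 3749 genes with a mean of at least 1000 reads, 64.0% of 5097 from 300 to under 1000 and 0.0678% of 5896 under 30. It was 15 of 15 for SR proteins and CLK kinases, 18 of 20 for solute carriers and pumps, 22 of 33 for membrane receptors and adhesion proteins, and 0 of 10 for major spliceosomal and 0 of 16 for variant U1 genes, whose median half-widths were 2.56 and 1.82. Among lists with many reads, the mitochondrially encoded RNAs had 0 of 15 within that range (median half-width 1.75) and the ribosomal protein mRNAs 36 of 61.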

How the data were processed

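RNA captured after proximity labeling was sequenced in 26 libraries, of which the 12 CD28 and PDGFR libraries were used. The authors deposited log2 FPKM values for 25745 genes. HISAT2 2.1.0, edgeR (no version) and the build hg38 are listed in the submitters' processing notes, per the labels. Values were used as deposited, with 0 other per-sample columns left aside. Read numbers were recovered by undoing the shared lowest value of each gene (a prior count near 1.00), and were whole to within 0.05 read for 99.98% of values in 3956 genes with a shared floor and 97.36% of those under 100 reads elsewhere. Such a prior understates differences of genes with few reads. Counting intervals, at 95%, and floors of 3 reads cover counting error only.

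Groups came from the sample titles. Genes with log2 FPKM above 0 in at least 3 of the 12 libraries (21601) were fitted in limma 3.58.1 (R 4.3.3) with an intensity trend and a mean for each of 4 groups, 8 residual degrees of freedom, two-sided, and tested on simulated data. Errors after ± are standard errors. Families were summed as RPM of recovered reads and tested by exact permutation within anchors. Symbols came from the reference table of gene names (20818 genes) and coordinates from GENCODE 29, where 24075 identifiers matched with version, 1579 without and 91 did not. Named genes were, per comparison, the 10 largest and 10 smallest called differences with a symbol and a mean of at least 10 reads (with fewer than 5, the 10 smallest p), called list members or else up to 4 with the most reads, and the construct genes. The members and the 26 lists were chosen with earlier results of these data known. Same-numbered libraries did not deviate together, with correlations from -0.08 to 0.14. The gene called lower with both anchors is counted but not reported here.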

Additional observations from a re-analysis of the deposited data

How the results depend on the processing

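With all 26 libraries in the limma fit, 110 genes were called with CD28, 430 with PDGFR, 661 in the average, 10 for CD28 minus PDGFR and 37 the same way in both. Weighting those libraries by construct gave 17, 113, 224, 3 and 7, and weighting the 12 libraries singly gave 49, 84, 298, 2 and 23. The other libraries of the series, Lyn11 and Lck, had 19.9 to 35.5 M recovered reads and a narrower spread. In the 26-library fits that spread enters the variance of each gene, so these counts are not comparable with those from the 12 libraries. The same-way calls without the 2 libraries and under quantile normalization numbered 1 each, as did the CD28 calls. limma voom called 11 with CD28, and a prior of 5 reads called 103 in the average. A replicate block, taking the number as a pairing, gave 0 for CD28, 6 for PDGFR, 20 for the average and 0 the same way in both, and 3 of 12 libraries correlated best with their own number. Leaving out 1 library at a time gave 1 to 12 calls with CD28, 10 to 67 with PDGFR, 27 to 70 in the average, 0 to 2 for CD28 minus PDGFR and 1 to 10 the same way. The genes called for CD28 minus PDGFR were RN7SL306P and ENSG00000219928 without CD28 labeled replicate 2 and RNU4-2 without PDGFR control replicate 1. RN7SL502P, a 7SL pseudogene with a mean of 5.33 reads, was called in opposite directions under single-library weights (-2.82 with CD28, 3.75 with PDGFR) and with all 26 libraries (-2.90 and 3.73), as was ENSG00000207380 (-3.50 and 3.04) with all 26 libraries, weighted by construct or not. Summed averages over the same omissions were 1.73 to 1.86 for U1, 0.81 to 0.98 for U2, 0.36 to 0.57 for U4, 1.68 to 2.26 for U5, -0.57 to -0.41 for U6, 1.50 to 1.61 for U3, -0.22 to -0.01 for 7SL, -0.30 to -0.11 for 7SK and -0.63 to -0.40 for Y. By exact permutation p not adjusted over the families, U4 (0.05 with all 12) was at 0.03 without the 2 libraries (0.64) and 0.02 with median-ratio scaling (0.55), 7SK (0.1) was at 0.04 without CD28 labeled replicate 1 and 0.025 without PDGFR control replicate 1, and without the 2 libraries Y was lost (-0.44, exact permutation p = 0.07) and 7SK was at -0.098. Of 1216 refits of called results on named genes, 886 stayed called, 330 kept only the direction and 0 reversed. These results were chosen for being called and the refits share libraries, so a reversal was unlikely and the counts are a description. The cause of the changes between settings was not tested.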
